A study of Mus musculus with 9 samples.

Results

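The genes described here are 41 patterning transcription factors, which were taken by symbol from the 23337 genes of the count table as homeobox genes outside the Hox clusters and T-box genes known from limb and other mesenchyme. The rule for choosing them used no measured value, but earlier results of these data were known when they were chosen. RNA was sequenced from immortalised Cebpb-ko MEFs, which are mouse embryonic fibroblasts that lack functional C/EBPβ, of C57BL/6 x 129 background. All groups carried the same knockout and were stably transfected with the empty vector (EV), with LAP or with LIP, and each group had 3 libraries. LAP is the longer and LIP the shorter protein isoform translated from a single Cebpb mRNA, and the plasmids carried the rat sequence under Zeocin selection. The question was how the transcriptome changes when C/EBPβ-deficient cells receive LAP or LIP. Nothing states that the 3 libraries of a group came from separate cultures or clones, so the p-values measure only the spread between these libraries, which may be technical.

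Homeobox genes encode proteins that bind DNA through the homeodomain, and T-box genes encode proteins that bind it through the T-box domain. In the embryo these factors give groups of mesenchymal cells their position and identity along the limb, the face and the body wall, and fibroblasts in culture often keep a part of that expression pattern. Within the homeobox genes, the paired-type factors Prrx1, Prrx2, Alx1, Alx4, Shox2 and Pitx1 act in limb and craniofacial mesenchyme, the Dlx and Msx factors in the branchial arches and limb buds, and the TALE factors Meis and Pbx as partners of Hox proteins. The Irx factors, also of the TALE class, are the Iroquois genes, and En1 specifies ventral limb ectoderm and a lineage of dermal fibroblasts. Several of the genes lie next to each other on a chromosome. On GRCm38.p6 in RefSeq, Dlx1 and Dlx2 were 9.4 kb apart on chromosome 2, Dlx5 and Dlx6 were 9.8 kb apart on chromosome 6, Dlx3 and Dlx4 were 15.2 kb apart on chromosome 11, Tbx3 and Tbx5 were 111.8 kb apart on chromosome 5, and Irx1 and Irx2 were 660.7 kb apart on chromosome 13.

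Promoter sequence in RefSeq (GRCm38.p6) was at hand for 24 of the 41 genes, in 26 windows from 250 bases before to 50 bases after a start. Alx4, Dlx3, Irx1, Meox1 and Tbx5, which are described below, were among the genes without a window, so the motif shares do not cover them. A C/EBP motif, spelled TTGCNNAA and searched on both strands, was found in 1 of the 26 windows (3.85%), against 10.8% of all 32851 windows. The homeodomain motif TAATTA, which reads the same on both strands and shares no match with the C/EBP motif in the windows printed here, was found in 2 of the 26 windows (7.69%), those of Prrx1 and Msx2, against 5.29% of all. A match describes the letters only and is no binding site, and the absence of a match says only that the letters are not in this window. The sequences below are shown because En1 was the gene with the C/EBP match, Prrx1 passed a test below and held a TAATTA match, and Shox2 was low in the same LIP libraries and held neither. Capitals mark the motif match, at position -91 in En1 and at position -173 in Prrx1, counted back from the RefSeq start. Bases that GENCODE vM21 places inside an exon of the gene were left off, namely 69 in En1 and 60 in Prrx1. RefSeq also holds a Prrx1 transcript that starts further upstream, and the Shox2 window lies in an intron of Rsrc1 on the opposite strand in GENCODE vM21.
En1 (chr1:120602237-120602417, + strand, GRCm38.p6): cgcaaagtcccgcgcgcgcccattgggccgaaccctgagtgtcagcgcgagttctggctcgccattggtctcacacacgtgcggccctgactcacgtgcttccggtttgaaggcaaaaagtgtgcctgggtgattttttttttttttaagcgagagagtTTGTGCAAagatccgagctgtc
Prrx1 (chr1:163313711-163313900, - strand, GRCm38.p6): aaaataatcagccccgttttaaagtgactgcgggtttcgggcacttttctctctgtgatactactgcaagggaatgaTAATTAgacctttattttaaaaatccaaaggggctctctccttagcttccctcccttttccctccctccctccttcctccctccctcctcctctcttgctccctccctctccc
Shox2 (chr3:66981772-66982021, - strand, GRCm38.p6): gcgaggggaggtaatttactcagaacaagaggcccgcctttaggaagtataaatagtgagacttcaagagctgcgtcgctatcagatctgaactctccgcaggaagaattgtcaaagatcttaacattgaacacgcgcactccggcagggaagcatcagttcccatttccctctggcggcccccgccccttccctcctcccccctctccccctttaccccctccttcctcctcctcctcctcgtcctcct

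Library totals on genes ranged from 24839139 to 33522082 reads. Values are given as counts and as CPM, that is counts scaled to a common library size by TMM over all 9 libraries, and 3 counts, the floor used here, stand for 0.0879 to 0.122 CPM. This floor reflects counting error alone, because PCR copies were not marked by molecular identifiers. Reads on mouse Cebpb lay between 25.2 and 33.3 CPM in the 9 libraries and overlapped between the groups, so they are no check of the labels. Pearson's r with the EV libraries, across 11535 genes that are not independent replicates, was 0.961 in LIP 2 and 0.963 in LIP 3, against 0.977 to 0.991 in the others, LIP 1 included. LIP 2 and LIP 3 stand apart in this sense, and results on LIP are given below with each library. Of 12 fibroblast markers 12 were in the table and none was at 0 in all libraries, with 7 above 10 CPM in every library. Their summed level was 34450 to 39160 CPM in EV, 25510 to 42690 CPM in LAP and 15090 to 29720 CPM in LIP. Lum was at 0 in all LIP libraries. Among markers of other cell types, Pecam1 and Emcn of endothelium, Ptprc and Itgam of leukocytes, and Myod1 and Myf5 of skeletal muscle were at 0 in all 9 libraries. Other genes of those lists were low, with Kdr at 1.02 to 2.80 CPM, Cd68 at 2.51 to 8.19 CPM and Des at 0.776 to 1.84 CPM. The neural genes Tubb3 and Nes were at 54.4 to 97.8 CPM and 78.9 to 132.1 CPM, while Sox2 was at 0, and of the chondrocyte genes Sox9 was at 15.4 to 46.3 CPM, lowest in LIP 3. Of 8 epithelial markers 8 were in the table and 2, Krt8 and Krt14, exceeded 10 CPM in every library, with a summed level of 576.5 to 706.2 CPM in EV, 484.8 to 986 CPM in LAP and 587.4 to 1004 CPM in LIP.

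The MEFs expressed a restricted set of the patterning factors. Of the 41 genes, 30 had more than 3 counts in some library and 20 had a mean of at least 20 counts over the 9 libraries. The other 11 were silent at this depth. Msx1, Meis2, Barx1 and Tbx4 had 0 counts in all 9 libraries, and Dlx5, Msx2, Pitx1, Six2, Meox2, Barx2 and Irx3 had 3 counts or fewer in each. Thus both Msx genes and both Barx genes were undetected or at the floor, and of the T-box pair that marks the limbs, the hindlimb factor Tbx4 was at 0 while the forelimb factor Tbx5 had 5 to 69 counts. Pitx1, a hindlimb factor upstream of Tbx4, had 0 to 3 counts.

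Levels were compared between genes only per length, as CPM per kb of exon. On that scale the T-box factor Tbx18, known from paraxial and epicardial mesenchyme, had the highest median level of 24.7, followed by Prrx2 with 23.5, Tbx15, a factor of dermal and skeletal mesenchyme, with 14.3, Pbx2 with 12.3 and Meis3 with 8.15. The ranges of Tbx18 and Prrx2 over the 9 libraries overlapped, so their order was not resolved over all groups. Their group means were 27.9 and 27.7 in EV, 27.7 and 27.0 in LAP, and 21.5 and 13.9 in LIP. Dlx2 with 7.63 and En1 with 7.62 stood next, and Alx4 with 0.306 and Tbx5 with 0.321 were the lowest medians over all 9 libraries among the 20 genes that averaged at least 20 counts. In LAP alone, the mean of Alx4 was 1.38 CPM per kb, above Dlx3 with 0.803 and Tbx5 with 0.296. Members of a family were far apart in level, for example Tbx18 from Tbx2, Tbx3 and Tbx20, which each had 24 counts or fewer in every library, and Meis3 from Meis1, which had 5 to 21 counts.

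**Figure D1:**
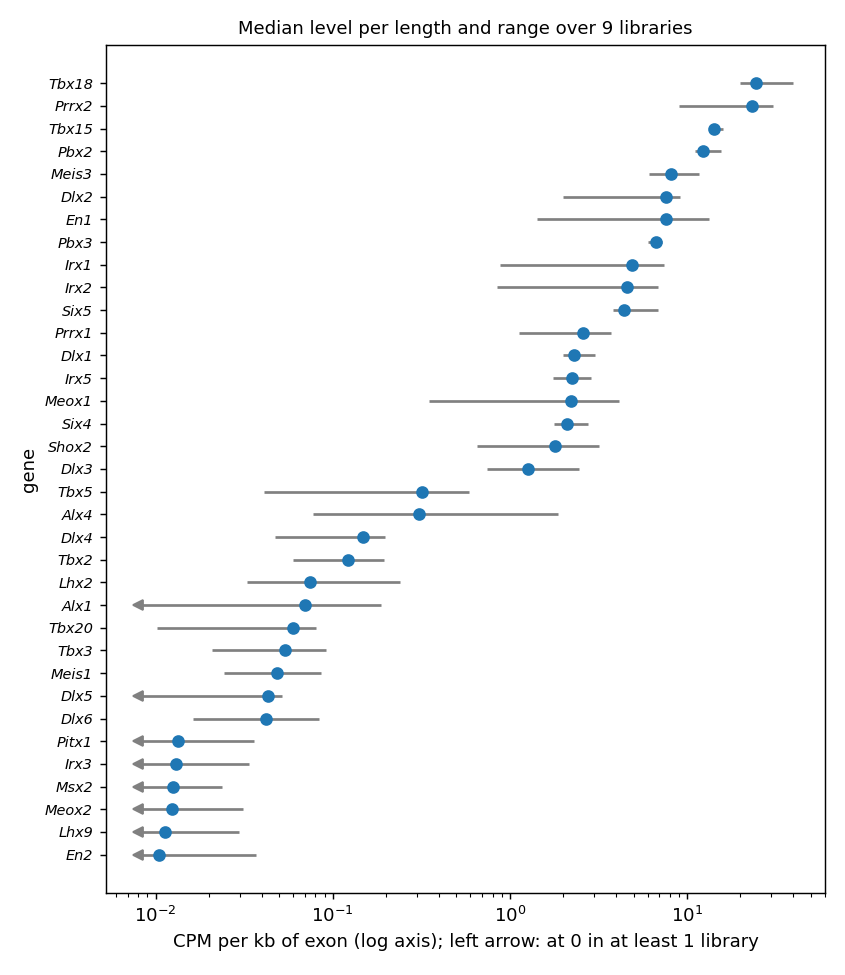
Level per length of the 35 patterning factors with a median above 0, as CPM per kb of exon on a log axis, with the median over 9 libraries as a point and the range as a line. Tbx18, Prrx2 and Tbx15 lie at the top, and 8 genes have an arrow at the left because at least 1 library was at 0.

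Linked neighbours did not have like levels in each case. Dlx1 and Dlx2 were both expressed, with 230 to 381 counts and 154 to 734 counts. Irx1 and Irx2 were also both expressed, with 65 to 574 and 69 to 589 counts. In contrast, Dlx3 had 59 to 174 counts and its neighbour Dlx4 had 3 to 14, and Irx5 had 162 to 308 counts where Irx3 had 0 to 3. Dlx5 and Dlx6 had 5 counts or fewer in every library.

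**Figure D2:**
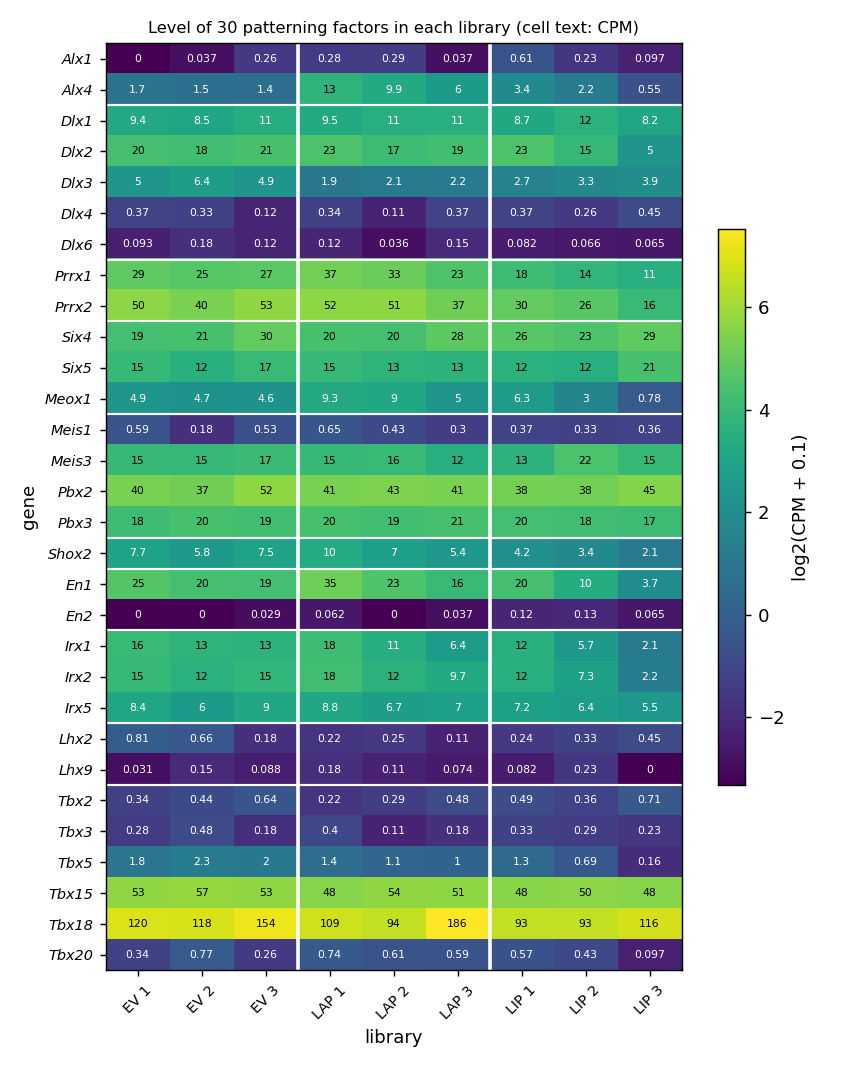
CPM of the 30 patterning factors with more than 3 counts in some library, coloured by log2(CPM + 0.1) and printed in each cell, with libraries as columns and genes ordered by family as rows. The row of Alx4 is brighter in the 3 LAP libraries (5.96 to 13.3 CPM) than in EV (1.44 to 1.68 CPM), and several rows darken in LIP 3.

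In the comparison of LAP with EV, a paired-type factor rose and a Dlx factor fell. Alx4, a factor of anterior limb and craniofacial mesenchyme (chromosome 2, 93642434 to 93681341 on GRCm38.p6), had 54, 40 and 49 counts in EV 1 to 3, against 431, 275 and 161 in LAP 1 to 3. As CPM this was 1.53 ± 0.131 in EV and 9.71 ± 3.67 in LAP (SD, n = 3 each). All LAP libraries were above all EV libraries, and LAP 3 was the lowest of them. The log2 fold change was 2.65 (SE 0.288, adjusted p = 0.00103 by the quasi-likelihood test of edgeR, with adjustment over all genes after Benjamini and Hochberg), or 6.29-fold. Dlx3, a factor of epidermis, placenta and bone (chromosome 11, 95120117 to 95125296), had 160, 174 and 167 counts in EV, against 63, 59 and 60 in LAP, which was 5.43 ± 0.859 and 2.09 ± 0.140 CPM (SD, n = 3 each). The groups did not overlap and the LAP libraries were close to each other. The log2 fold change was -1.38 (SE 0.227, edgeR adjusted p = 0.0432).

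These were 2 of the 37 patterning factors tested, where 11 of all 18156 genes passed in either direction (0.0606%). With the replicate number as a block, which the same-number libraries of LAP and EV allow, both genes passed again (Alx4 2.59, edgeR adjusted p = 1.42e-06, and Dlx3 -1.37, edgeR adjusted p = 0.00154), among 54 genes in all (0.297%). Neither gene passed when genes of low counts were left out before the test (edgeR adjusted p = 0.0508 for Alx4 under filterByExpr). That filter left 3 of 12514 genes past the threshold. Dlx3 lost its call on leaving out EV 2, EV 3, LAP 1 or LAP 2 (edgeR adjusted p up to 0.261).

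At an unadjusted p under 0.05, the factors lower in LAP were 4 of 37 (1.34% of all genes) and those higher were 2 of 37 (1.93% of all genes). Besides Alx4 and Dlx3, these were Meox1, Tbx5, Lhx2 and Pitx1. Meox1, a factor of somites, had 159, 128 and 156 counts in EV, against 301, 250 and 134 in LAP, with a log2 fold change of 0.69 (SE 0.243, edgeR adjusted p = 0.918). Its CPM did not overlap between EV (4.57 to 4.95) and LAP (4.96 to 9.28), although LAP 3 was next to the EV range. Tbx5 had 59, 63 and 69 counts in EV and 45, 30 and 28 in LAP, with a log2 fold change of -0.82 (SE 0.266, edgeR adjusted p = 0.918). Lhx2, a LIM-homeobox factor of the distal limb bud, had 26, 18 and 6 counts in EV and 7, 7 and 3 in LAP, and these overlapped. Pitx1 had 2, 1 and 3 counts in EV and 0 in each LAP library, so both groups were at or under the floor and no fold is given. Neither Meox1, Tbx5, Lhx2 nor Pitx1 passed the adjusted test.

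The other expressed factors had small differences between LAP and EV. Among the 20 factors with a mean of at least 20 counts, 13 had a log2 fold change below 0 and the median was -0.04, where all 11535 such genes had a median of 0.00. The 3 other paired-type genes of this set were near 0, with 0.20 for Prrx1 (SE 0.181), -0.04 for Prrx2 (SE 0.175) and 0.10 for Shox2 (SE 0.246). Dlx1 and Dlx2, of the same family as Dlx3, had 0.14 (SE 0.184) and -0.01 (SE 0.172).

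**Figure D3:**
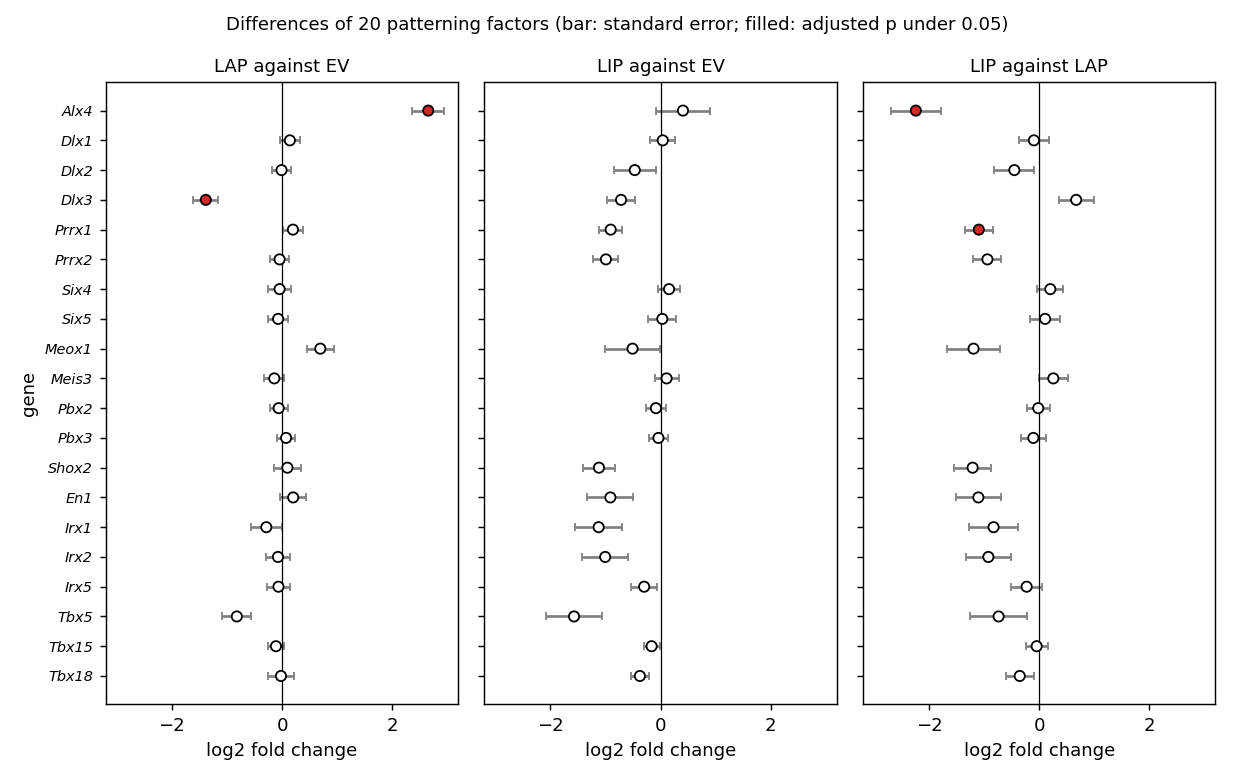
Log2 fold change of the 20 patterning factors with a mean of at least 20 counts in the 3 comparisons, with bars of 1 standard error and filled points for an adjusted p under 0.05. Alx4 (2.65) and Dlx3 (-1.38) are filled in LAP against EV and Alx4 (-2.24) and Prrx1 (-1.09) in LIP against LAP, and no point is filled in LIP against EV.

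In the comparison of LIP with EV, no patterning factor passed edgeR's quasi-likelihood test on the 6 libraries without the replicate block. Several mesenchymal factors had low values in all LIP libraries, with wide error. Of 37 factors tested 0 passed in this fit, where 72 of 18203 genes passed (0.396%). With the block 5 passed, among 467 of 18203 genes, although the replicate numbers did not pair these libraries. On all 9 libraries in a single model 1 passed, among 157 of 18725 genes. By edgeR at an unadjusted p under 0.05, 10 factors were lower in LIP (6.75% of all genes) and 1 was higher (4.23% of all genes). The 10 include Dlx5 and the 1 is En2, with at most 2 and 4 counts in any library. DESeq2 and the edgeR exact test each called Prrx1, Prrx2 and Shox2 as lower, where they called 321 (1.76%) and 301 (1.65%) of the 18203 genes. Among the 20 factors with a mean of at least 20 counts, 15 had a log2 fold change below 0, and the median was -0.42 with a range of -1.57 to 0.41. Of all 11535 such genes, 47.9% were below 0 and the median was 0.01. In RNA from many cells, fewer cells of a type and less RNA per cell cannot be told apart. The summed level of the 12 fibroblast markers was also lower in each LIP library than in each EV library. Its members differed in size of change. Col1a1, Col1a2, Col3a1, Pdgfra and Thy1 had log2 fold changes of -0.83, -1.095, -0.67, -1.38 and -1.08 (edgeR adjusted p of 0.138 to 0.555). Vim, Col6a1 and Fn1 had -0.07, -0.10 and -0.28, and none of the 12 markers passed. Vim in LIP 1 (5092 CPM) was above each EV library (4155 to 4980 CPM), as was Col6a1 in LIP 3 (1754 against 1105 to 1173 CPM). Col3a1 in LIP 3 (5698 CPM) lay within the EV range (4979 to 6494 CPM). The part of these differences in the result was not tested.

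The paired-type factors Prrx1, Prrx2 and Shox2 had the smallest p-values of the set in this comparison. Prrx1, a factor of limb bud mesenchyme (chromosome 1, 163245119 to 163315145), had 917, 688 and 921 counts in EV and 443, 429 and 343 in LIP, which was 27.0 ± 1.57 and 14.4 ± 3.52 CPM (SD, n = 3 each). Its log2 fold change was -0.91 (SE 0.203, edgeR adjusted p = 0.0863). Prrx2, the closely related factor (chromosome 2, 30845064 to 30881251), had 1594, 1095 and 1804 counts in EV and 736, 800 and 484 in LIP, which was 47.6 ± 6.45 and 24.0 ± 7.46 CPM (SD, n = 3 each). For both genes the groups did not overlap and LIP 3 was the lowest library. The log2 fold change of Prrx2 was -0.99 (SE 0.227, edgeR adjusted p = 0.0925). Shox2, a factor of the proximal limb (chromosome 3, 66971723 to 66981771), had 249, 156 and 257 counts in EV and 104, 103 and 65 in LIP, with a log2 fold change of -1.12 (SE 0.287, edgeR adjusted p = 0.130). Its libraries did not overlap either. The exact permutation test of the CPM gave p = 0.1 for each of the 3 genes (n = 3 each), the smallest it allows. Prrx1 passed without LIP 1 (edgeR adjusted p = 0.0296) and Prrx2 without LIP 3 (edgeR adjusted p = 0.0387).

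**Figure D4:**
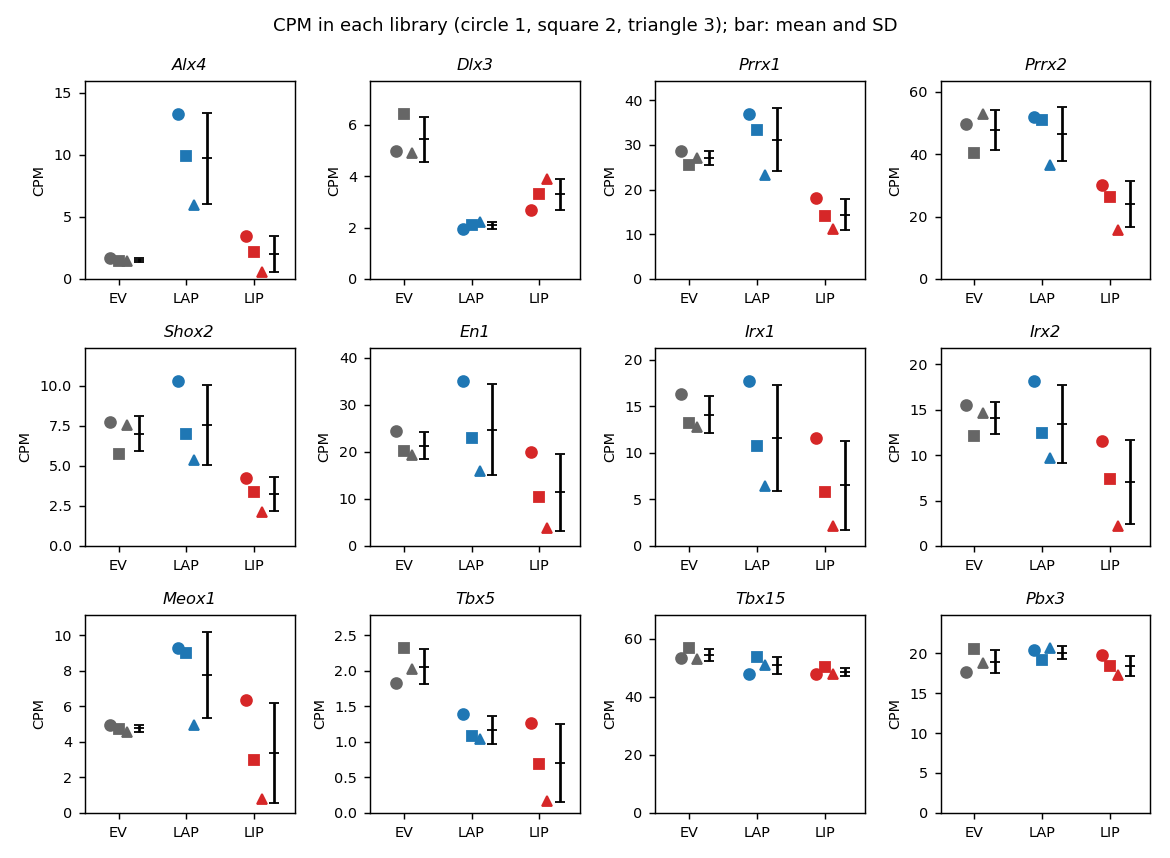
CPM of 12 patterning factors in each library of EV (grey), LAP (blue) and LIP (red), on linear axes from 0, with the mean and SD as a bar. Alx4 is high in LAP (9.71 ± 3.67 CPM), Dlx3 is lowest in LAP (2.09 ± 0.140 CPM), Prrx1, Prrx2 and Shox2 are low in each LIP library, and Tbx15 and Pbx3 are level in all.

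En1, Irx1, Irx2 and Tbx5 also had lower means in LIP, with a wide spread among the LIP libraries. Irx1 is described because it is the neighbour of Irx2 and was chosen after its values were seen. En1 had 788, 549 and 657 counts in EV and 490, 318 and 116 in LIP, and LIP 1 lay within the EV range of 19.2 to 24.5 CPM. Its log2 fold change was -0.91 (SE 0.417, edgeR adjusted p = 0.455). Irx1 had 525, 357 and 434 counts in EV and 285, 175 and 65 in LIP, and Irx2 had 497, 327 and 499 in EV and 282, 224 and 69 in LIP. Their log2 fold changes were -1.12 (SE 0.432, edgeR adjusted p = 0.355) and -1.01 (SE 0.416, edgeR adjusted p = 0.399). Both were below EV in all LIP libraries, by little in LIP 1. Tbx5 had 31, 21 and 5 counts in LIP and a log2 fold change of -1.57 (SE 0.505, edgeR adjusted p = 0.242).

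The LIP libraries differed among themselves in the same genes. The ratio of the highest to the lowest LIP library in CPM was 8.16 for Meox1, 7.84 for Tbx5, 6.25 for Alx4, 5.54 for Irx1, 5.34 for En1, 5.17 for Irx2 and 4.56 for Dlx2, and LIP 3 was the lowest in each. It was 1.05 for Tbx15 and 1.15 for Pbx3. Of the 20 factors, LIP 3 was the lowest LIP library for 14, and LIP 1 and LIP 2 for 3 each. Alx4 had 84, 66 and 17 counts in LIP, so LIP 1 and LIP 2 were above EV and LIP 3 was below it. Leaving out LIP 1 turned the sign of its log2 fold change from 0.41 to -0.17.

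**Figure D5:**
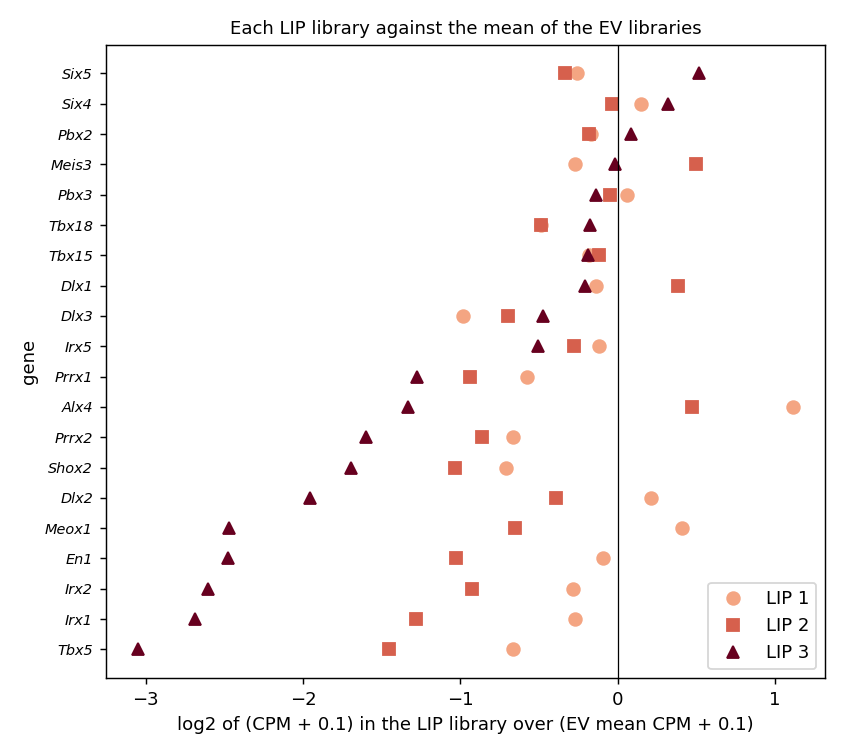
Log2 ratio of each LIP library to the mean of the EV libraries, from CPM + 0.1, for the 20 patterning factors with a mean of at least 20 counts, ordered by LIP 3. LIP 3 is the lowest library for 14 of the genes, and 15, 17 and 17 of the 20 lie below 0 in LIP 1, LIP 2 and LIP 3.

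Tbx18 had 3857, 3188 and 5250 counts in EV and 2278, 2844 and 3578 in LIP, with a log2 fold change of -0.38 (SE 0.167, edgeR adjusted p = 0.441). Its CPM did not overlap between the groups, with 93.0 to 115.6 in LIP and 117.6 to 153.8 in EV. Some factors were close to level between EV and LIP. Tbx15 was at 54.5 ± 2.09 CPM in EV, against 48.6 ± 1.42 CPM with LIP (SD, n = 3 each), with a log2 fold change of -0.16 (SE 0.143, edgeR adjusted p = 0.706). The TALE factors Pbx2, Pbx3 and Meis3 had log2 fold changes of -0.08 (SE 0.175), -0.04 (SE 0.174) and 0.11 (SE 0.218), while Irx1 and Irx2 of the same class had about -1 with the errors given above. Six4 and Six5 had 0.15 (SE 0.203) and 0.03 (SE 0.252). Dlx1 had 0.04 (SE 0.228), Dlx2 -0.47 (SE 0.382), Irx5 -0.30 (SE 0.239) and Meox1 -0.51 (SE 0.503) as log2 fold changes, none past the test. The 10 factors above 3 counts with a mean under 20 (Alx1, Dlx4, Dlx6, Meis1, En2, Lhx2, Lhx9, Tbx2, Tbx3 and Tbx20) passed in none of the 3 comparisons, and at this depth their differences were not resolved. Dlx3 had 66, 101 and 120 counts in LIP and a log2 fold change against EV of -0.72 (SE 0.254, edgeR adjusted p = 0.309), without overlap. Dlx5 had 2, 2 and 1 counts in EV and 0 in each LIP library, and En2 had 0, 0 and 1 counts in EV and 3, 4 and 2 in LIP, so neither allows a fold that can be read.

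In the comparison of LIP with LAP, Alx4 and Prrx1 were lower in LIP. Alx4 had a log2 fold change of -2.24 (SE 0.460, edgeR adjusted p = 0.0250), with 2.05 ± 1.44 CPM in LIP and 9.71 ± 3.67 CPM in LAP (SD, n = 3 each). Prrx1 had 1197, 925 and 631 counts in LAP and a log2 fold change of -1.09 (SE 0.255, edgeR adjusted p = 0.0452). Both were without overlap, so each LIP library was below each LAP library. They were 2 of 37 factors tested, where 190 of 18166 genes passed (1.05%). At an unadjusted p under 0.05, 8 factors were lower in LIP (5.98% of all genes) and 1, Dlx3, was higher (3.30% of all genes). Dlx3 had a log2 fold change of 0.67 (SE 0.319, edgeR adjusted p = 0.534). The 8 include Dlx5, with at most 2 counts in any library. Neither Alx4 nor Prrx1 passed when genes of low counts were left out before the test. Under filterByExpr their edgeR adjusted p was 0.212 and 0.193, and 2 of 12419 genes passed. Alx4 lost its call without LAP 2 (edgeR adjusted p = 0.143), where 7 of 17990 genes passed. Prrx1 lost its call without LAP 1, LAP 2, LIP 1 or LIP 2 (edgeR adjusted p up to 0.185). It also lost it with scaling by total counts only (edgeR adjusted p = 0.0775).

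With the replicate number as a block, 8 of the 37 factors were lower in LIP than in LAP and none was higher, where 1183 of 18166 genes passed (6.51%). In addition to Alx4 (-2.41) and Prrx1 (-1.10) these were Meox1 (-1.49, adjusted p = 1.34e-05), En1 (-1.30, adjusted p = 1.04e-06), Shox2 (-1.20, adjusted p = 0.000157), Irx2 (-1.11, adjusted p = 0.000225), Irx1 (-0.99, adjusted p = 0.00123) and Prrx2 (-0.97, adjusted p = 3.56e-05), all by edgeR's quasi-likelihood test. In the fit without the block, these 6 genes had adjusted p-values of 0.0927 (Prrx2) to 0.624 (Irx1). The library numbered 3 was the lowest of LAP for these genes, as it was of LIP. En1 had 1138, 640 and 433 counts in LAP, Meox1 had 301, 250 and 134, Shox2 had 334, 194 and 145, Irx2 had 589, 345 and 263, and Irx1 had 574, 298 and 173. Without both libraries numbered 1 the blocked count was 9, where 640 of 17800 genes passed. It was 5 without those numbered 2 (390 of 17663 genes) and 6 without those numbered 3 (914 of 17438 genes). Irx1 lost its call without number 2 or 3 (edgeR adjusted p of 0.0883 and 0.0951), as did Irx2 (0.0677 and 0.127), and Meox1 lost it without number 2 (0.152). Each LIP library was below the LAP library of the same number for each of the 6, as CPM. Among the 20 factors with a mean of at least 20 counts, 16 had a log2 fold change below 0 without the block, and the median was -0.40, where all 11534 such genes had a median of 0.00.

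Other genes of the same classes, from lists drawn up with earlier results of these data known, did not pass the test without the replicate block in any comparison. Of 71 other homeobox and T-box genes 70 were in the table. By edgeR, 0 of 57 tested passed in LIP against EV, 0 of 59 in LAP against EV and 0 of 58 in LIP against LAP. The shares of all genes that passed were 0.396%, 0.0606% and 1.05%. At an unadjusted p under 0.05 there were 5 lower and 4 higher, 1 lower and 1 higher, and 3 lower and 5 higher. Of all genes, 6.75% were lower and 4.23% higher in LIP against EV, 1.34% and 1.93% in LAP against EV, and 5.98% and 3.30% in LIP against LAP by the same rule. With the replicate block, 0 of these genes passed in LAP against EV, where 0.297% of all genes passed. Vax2 (lower, edgeR adjusted p = 0.0127) and Hhex (higher, edgeR adjusted p = 0.0238) passed in LIP against LAP, where 6.51% of all did. Of 48 signals and factors that act with the patterning factors in limb and face mesenchyme, 47 were in the table. In the same order, 0 of 45, 0 of 41 and 0 of 44 tested passed, against 0.396%, 0.0606% and 1.05% of all genes. At an unadjusted p under 0.05, 10 of these partners were lower in LIP than in EV and 1 was higher. In LAP against EV 2 were lower and 1 was higher, and in LIP against LAP 6 were lower and 1 was higher. These are to be read against the unadjusted shares of all genes above. With the replicate block, 1 of 41 partners, Foxd1, was lower in LAP than in EV (edgeR adjusted p = 0.0181), where 0.297% of all genes passed. In LIP against LAP, 8 of 44 partners were lower with the block and 0 were higher, where 6.51% of all genes passed, 871 lower and 312 higher. Fgf10, the growth factor that starts limb outgrowth, had 1370, 834 and 415 counts in LAP and 612, 337 and 116 in LIP, with a log2 fold change of -1.12 (SE 0.450, edgeR adjusted p = 0.389 without the block and 1.71e-07 with it). Twist2, a bHLH factor of dermal mesenchyme, had 1552, 967 and 525 counts in LAP and 785, 503 and 258 in LIP, with a log2 fold change of -0.83 (SE 0.371, edgeR adjusted p = 0.487 without the block and 0.000162 with it).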

How the data were processed

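RNA-seq was done on 9 libraries (3 each of EV, LAP and LIP), with the Illumina TruSeq RNA v2 kit. Per the methods and the submitters' processing notes, the authors used bcl2fastq 1.8.3, TopHat 1.4.1 on the mouse genome (mm10) and HTSeq 0.5.4. They deposited raw counts per gene symbol, without normalization. The strand setting and the handling of reads with several alignments are not given in the sources used here, so overlapping genes of opposite strand, and near-identical copies, cannot be told apart. All 9 library columns were used.

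The members and gene lists were chosen with earlier results of these data known. Each comparison used 6 libraries and genes that reached at least 1 count there. After TMM scaling, the quasi-likelihood test of edgeR 4.0.16 (R 4.3.3) was applied, with Benjamini-Hochberg adjustment over all genes tested (threshold 0.05). The SE is the log2 fold change over the square root of F. The two-sided exact permutation test on CPM cannot go below p = 0.1. The test was tried on simulated data. Named in full are the members past the threshold in any comparison and the 3 with the smallest unadjusted p in each. Exon lengths came from GENCODE vM21, positions and promoters from RefSeq (GRCm38.p6). Alternatives included DESeq2 1.42.0, other scalings, filters, left-out libraries and the replicate block. Figures used matplotlib 3.10.9.

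Libraries carry the numbers 1 to 3 within every group, per the labels. The deviations of 11535 genes from their group means were correlated between same-numbered libraries. The r was 0.524, 0.21 and 0.511 for LAP and EV and 0.559, 0.414 and 0.466 for LIP and LAP, so the numbers were taken to pair the libraries there. For LIP and EV it was 0.29, -0.121 and 0.231, and the numbers were not taken to pair those. The choice was thus made per comparison from these same data, and what the numbers stand for is not stated. No libraries of a group differed by as little as sampling noise.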

Additional observations from a re-analysis of the deposited data

How the results depend on the processing

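The replicate block, DESeq2, the edgeR exact test and the filter on low counts changed the number of patterning factors called. For LIP against EV (0 called, among 72 of 18203 genes) it was 3 with DESeq2 and 3 with the exact test (321 and 301 genes). It was 1 with all 9 libraries in a single model (157 of 18725 genes). On leaving out a library it was 0 to 1 (22 to 367 genes). With the replicate block it was 5 (En1, Irx1, Prrx1, Prrx2 and Shox2), among 467 of 18203 genes, 402 lower and 65 higher. There the numbers did not pair the libraries (r of same-numbered libraries 0.29, -0.121 and 0.231, with 2 of 3 LIP and 2 of 3 EV libraries correlating best with their own number). With the block there, 6 limb and mesenchyme partners and Vax2 were lower. For LAP against EV (2 called, among 11 of 18156 genes) it was 0 with filterByExpr (3 of 12514 genes). With at least 10 counts in every library it was 0 (0 of 11705 genes). With all 9 libraries in a single model it was 1 (5 of 18725 genes), and at an adjusted p under 0.01 it was 1 (6 genes). On leaving out a library or both libraries of a number it was 1 to 3 (6 to 273 genes). For LIP against LAP (2 called, among 190 of 18166 genes) it was 1 with total counts only (113 genes). It was 0 with filterByExpr (2 of 12419 genes) and 0 with at least 10 counts in every library (0 of 11480 genes). At an adjusted p under 0.01 it was 0 (36 genes), and with the replicate block it was 8 (1183 genes). On leaving out libraries it was 0 to 9, with 0 without LAP 2 (7 of 17990 genes) and 5 without LAP 3 (408 of 17869 genes). The fits that leave out both libraries of a number were chosen after seeing the data. The 2 filters tested fewer genes by construction. The cause of the changes in the number called was not tested. Some differences of single genes near 0 turned sign, none of them called. These were, on leaving out libraries, Alx4 in LIP against EV (-0.17 to 0.87) and, in LAP against EV, Prrx2 (-0.16 to 0.098, and 0.18 with the replicate block), Shox2 (-0.20 to 0.29, and -0.14 and -0.016 with the block), En1 (-0.15 to 0.43, and -0.073 with the block), Irx2 (-0.36 to 0.11, and 0.12 with the block) and Irx1 (-0.74 to 0.0025). For the log2 fold changes of Irx1 and the genes named in full, above 3 counts, 450 alternative fits kept direction and side of the threshold. Of the other fits, 39 passed it newly, 19 lost it and 13 turned sign. A gene called in neither fit counts as kept, and the numbers of factors called are not in this tally. Alx4 in LAP against EV passed in 6 of 6 fits without a library (2.35 to 2.90). Depth limits the 10 factors above 3 counts with a mean under 20 and the 11 silent ones.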
